A study of Mus musculus with 24 samples.

Results

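Cardiolipin is the signature phospholipid of the inner mitochondrial membrane, where it binds respiratory complexes and helps to shape the cristae. Its assembly starts with phosphatidic acid. The small proteins Prelid1 and Triap1 form a complex that carries phosphatidic acid across the intermembrane space. Tamm41 turns it into CDP-diacylglycerol, Pgs1 makes phosphatidylglycerophosphate from that, and Ptpmt1 removes a phosphate to give phosphatidylglycerol. Crls1, cardiolipin synthase, joins phosphatidylglycerol to a further CDP-diacylglycerol to give cardiolipin. All of these proteins are encoded in the nucleus and act in mitochondria. The preimplantation embryo inherits its mitochondria from the oocyte.

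The genes described here are these 6, Crls1, Pgs1, Ptpmt1, Tamm41, Prelid1 and Triap1, picked by name for their place in the synthesis route, out of 37229 gene symbols in the count table. The route was picked with the lower Crls1 level of split morulae already known, so values of split morulae against control morulae are given below as a description with no test. All 6 genes had a row in both deposited tables and passed the filter on low counts, which 15875 genes passed.

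Single ICR mouse embryos made by in vitro fertilization were sequenced after Smart-seq2, which copies polyadenylated RNA from an oligo(dT) primer. Intact control embryos, not separated and cultured alongside, were taken at the 8-cell stage (4 embryos), as morulae (5 embryos) and as blastocysts (3 embryos). For the split embryos, fully cleaved late 2-cell embryos were placed in G-PGD biopsy medium, their blastomeres were parted mechanically, and each was grown alone in modified sodium hyaluronate gel, which gave 3 sister pairs collected as split morulae and 3 others collected as split blastocysts, 12 split embryos in all. The controls were not put through the biopsy medium, the separation or, as far as the labels say, the gel, so these steps cannot be told apart, and no label gives an embryo's age in hours, its sex, litter or batch. Counts of a sister pair were summed to 1 unit, which left 18 units in 5 groups. A split unit thus sums sister embryos while a control unit is a single embryo, so their spreads are not like for like. Levels are read counts scaled to a fixed total with TMM factors (CPM), given as mean ± SD over units. The labels do not say whether embryos of a group came from separate matings or cultures, so the p-values below cover only how far these units vary, which may be technical.

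Libraries held 11316911 to 38514899 counted reads, with the deepest at the 8-cell stage (26282853 or more) and the shallowest among control blastocysts (12653788 or fewer). Transcripts of the 13 mitochondrially encoded proteins took a median of 4.24% of counts in 8-cell embryos, 3.99% in control morulae, 2.71% in split morulae, 4.28% in control blastocysts and 1.77% in split blastocysts. Counts of 7 trophectoderm markers summed to 2078 to 3573 CPM in control blastocysts and 4454 to 6883 CPM in split blastocysts, and to 528 to 953 CPM in control morulae and 322 to 2314 CPM in split morulae. The 5 inner cell mass and epiblast markers summed to 322 to 498 CPM in control blastocysts and 281 to 467 CPM in split blastocysts, and all 5 had counts in each morula and blastocyst group. The 4 primitive endoderm markers summed to 158 to 230 CPM in control blastocysts and 71.2 to 141 CPM in split blastocysts. They summed to 91.4 to 391 CPM in 8-cell embryos, 103 to 138 CPM in control morulae and 67.7 to 173 CPM in split morulae. Of these, Sox17 was at 0 in all 8-cell embryos and morulae and had counts in both blastocyst groups. Markers of cumulus and granulosa cells summed to at most 2.11 CPM in any embryo, with Amh, Fshr, Inha and Foxl2 at 0 throughout. The sum for sperm and spermatids reached 6.54 CPM with Tnp1 at 0 throughout, and that for blood reached 110 CPM in a split morula with Ptprc at 0 throughout. In whole embryos, fewer cells of a type and less RNA per cell cannot be told apart.

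The promoters of Crls1 and Prelid1 are shown because these genes moved in opposite directions in split blastocysts. RefSeq promoter entries on GRCm38.p6 were found for 5 of the 6 genes (Tamm41 is named only). The 250 bases before the start of Crls1 lie at chr2:132846416-132846665 on the plus strand, and those of Prelid1 at chr13:55321805-55322054 on the plus strand. Capitals mark matches to an E-box (CACGTG) and to an ETS-type motif (CCGGAAG). These motifs, and the NRF1-type motif (GCGC, any base, then TGCGC), were searched on both strands and were chosen after the sequences had been seen.
Crls1: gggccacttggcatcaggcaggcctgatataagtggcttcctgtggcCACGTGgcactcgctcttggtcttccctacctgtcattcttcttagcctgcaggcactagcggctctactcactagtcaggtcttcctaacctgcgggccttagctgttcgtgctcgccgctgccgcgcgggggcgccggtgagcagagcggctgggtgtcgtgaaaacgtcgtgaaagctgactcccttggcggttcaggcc
Prelid1: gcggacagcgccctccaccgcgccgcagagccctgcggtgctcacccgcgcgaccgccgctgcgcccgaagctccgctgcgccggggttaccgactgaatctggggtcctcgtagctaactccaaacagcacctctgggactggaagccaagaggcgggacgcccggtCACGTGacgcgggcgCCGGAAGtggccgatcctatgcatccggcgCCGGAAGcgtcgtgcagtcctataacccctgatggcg
The Crls1 stretch held 1 E-box and neither of the other motifs, and its G and C bases made up 61.6%. A further RefSeq start of Crls1 lies downstream, and the 250 bases before it held none of the 3 motifs. The Prelid1 stretch held 1 E-box and 2 ETS-type matches that overlap no other match, with 69.6% G and C. The Pgs1 stretch held 1 NRF1-type match, while those of Ptpmt1 and Triap1 held none of the 3 motifs. Among 32851 promoter stretches of the same length, 6.02% held the E-box, 6.91% the ETS-type motif and 3.74% the NRF1-type motif. A match describes letters in this stretch only.

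Compared per transcript length, the members differed widely in level, and their order differed between groups. In deposited TPM (transcript abundance scaled by length), Crls1 and Triap1 led at the 8-cell stage, with embryo medians of 323.6 and 391.8 TPM, against 51.95 for Prelid1, 12.44 for Pgs1, 10.7 for Ptpmt1 and 7.603 for Tamm41. In split blastocysts Prelid1 led at a median of 253.3 TPM, Triap1 followed at 127.5, and Crls1, at 40.75, stood close to Ptpmt1 (41.04) and Tamm41 (38.64), above Pgs1 (17.19). In control blastocysts Crls1, at a median of 126.1 TPM, stood close to Triap1 (123.1), below Prelid1 (163.1) and above Ptpmt1 (47.65), Tamm41 (23.19) and Pgs1 (8.640). The 6 members together summed to a median of 766.7 TPM at the 8-cell stage, 458.3 in control morulae, 424.1 in split morulae, 472.0 in control blastocysts and 539.6 in split blastocysts. Crls1 made up a median of 38.72% of that sum at the 8-cell stage, 20.24% in control morulae and 26.88% in control blastocysts. Its share was 9.138% in split morulae and 7.361% in split blastocysts. Across embryos it ran from 20.17% to 26.88% in control blastocysts and from 6.845% to 9.889% in split blastocysts, with no overlap. Prelid1 made up 6.887% of the sum at the 8-cell stage, 34.08% in control blastocysts and 49.73% in split blastocysts (medians over embryos). These shares were not tested.

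**Figure D1:**
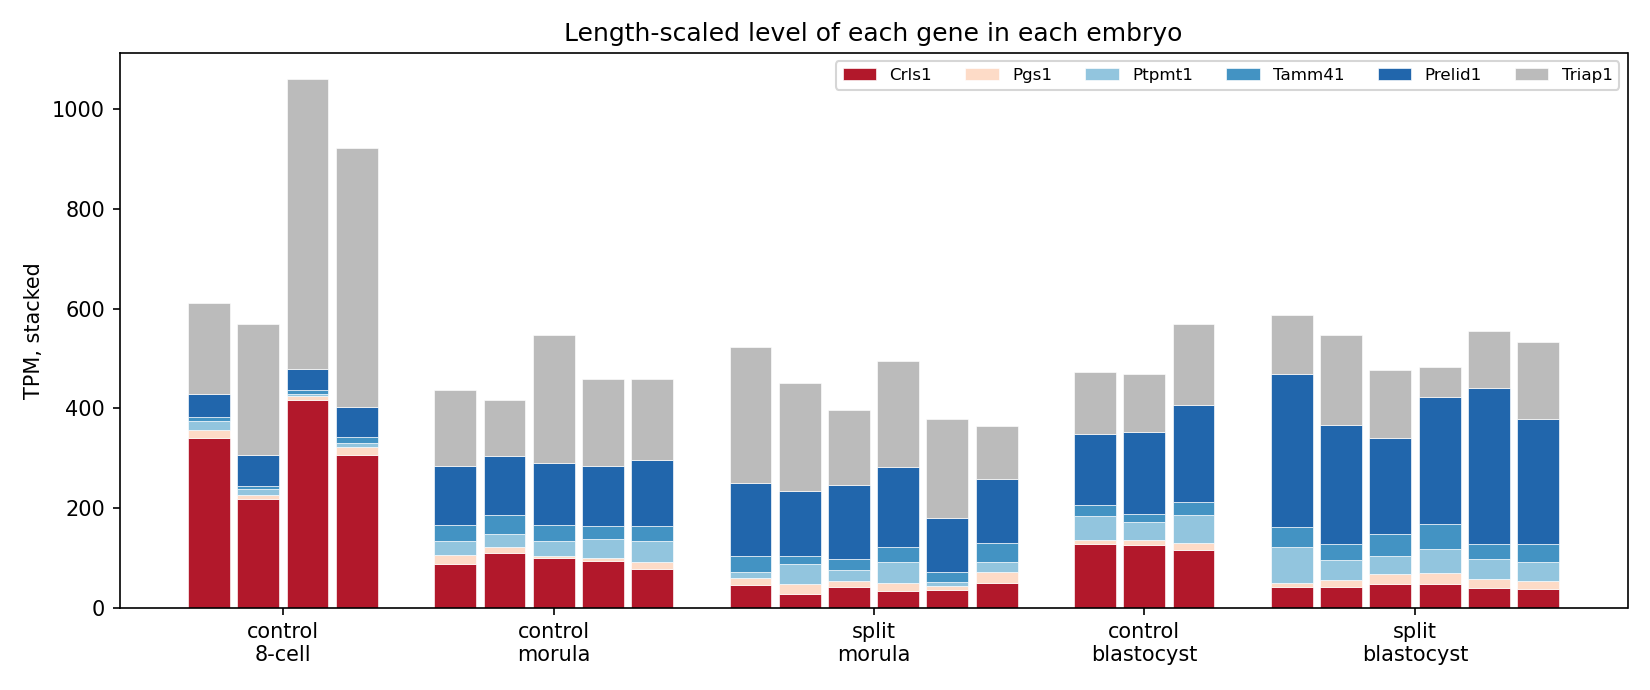
Deposited TPM of the 6 members, stacked for each embryo and grouped by stage and origin, on a linear axis that starts at 0. Crls1 takes 33.23% to 55.78% of the sum in 8-cell embryos and 6.845% to 9.889% in split blastocysts, and Prelid1 takes 40.60% to 56.38% of the sum in split blastocysts.

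Between the 8-cell stage and the morula, 5 of the 6 members changed in intact embryos, 3 upward and 2 downward, where 24.9% of all tested genes were called in either direction, 14.3% higher and 10.7% lower. Tamm41, Ptpmt1 and Prelid1 rose, Crls1 and Triap1 fell, and Pgs1, the step between Tamm41 and Ptpmt1, did not pass. The median log2 change over the members was 0.45 beside 0.09 over all tested genes. This comparison asks what changes as intact embryos pass from 8 cells to compaction.

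At the entry to the route, Prelid1 stood at 59.62, 79.30, 53.85 and 67.74 CPM in the 8-cell embryos and at 137.9, 150.1, 148.5, 146.4 and 158.8 CPM in the control morulae. Every morula was above every 8-cell embryo. The log2 change was 1.19 ± 0.17 (SE; edgeR quasi-likelihood adjusted p = 2.70e-05). Its partner Triap1 went the other way, from 193 ± 94.3 to 82.5 ± 24.8 CPM (n = 4 and 5 units), a log2 change of -1.23 ± 0.30 (edgeR adjusted p = 0.00432). The 8-cell values of Triap1 were 95.89, 134.8, 300.5 and 240.7 CPM, and the lowest of them lay below the highest morula, 122.6 CPM.

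Tamm41, the CDP-diacylglycerol synthase of mitochondria, had the largest rise among the members. It measured 20.81, 12.85, 17.56 and 26.91 CPM in the 8-cell embryos and 76.62, 97.28, 69.89, 64.89 and 66.01 CPM in the control morulae. The groups were well apart, and the log2 change was 1.94 ± 0.26 (edgeR adjusted p = 1.07e-05). Ptpmt1, the phosphatase, rose from 17.9 ± 9.61 to 50.5 ± 11.3 CPM, with a log2 change of 1.5 ± 0.36 (edgeR adjusted p = 0.00425) and no overlap. Pgs1, the synthase between them, was at 30.2 ± 8.98 and 24.6 ± 14.0 CPM. Its log2 difference of -0.29 ± 0.41 (edgeR adjusted p = 0.656) did not pass, and the control morulae alone spread from 8.611 to 41.48 CPM.

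Crls1 fell furthest. It measured 341.6, 213.1, 411.1 and 271.2 CPM in the 8-cell embryos and 78.79, 106.2, 89.87, 88.63 and 70.88 CPM in the control morulae. The lowest 8-cell embryo was above the highest morula. The fall was 3.56-fold, a log2 change of -1.83 ± 0.20 (edgeR adjusted p = 7.28e-07). All 5 of these calls held in each of the 19 alternative settings and left-out libraries tried. The rising members and Crls1 were separated without overlap, as were 21.8% of all tested genes.

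**Figure D2:**
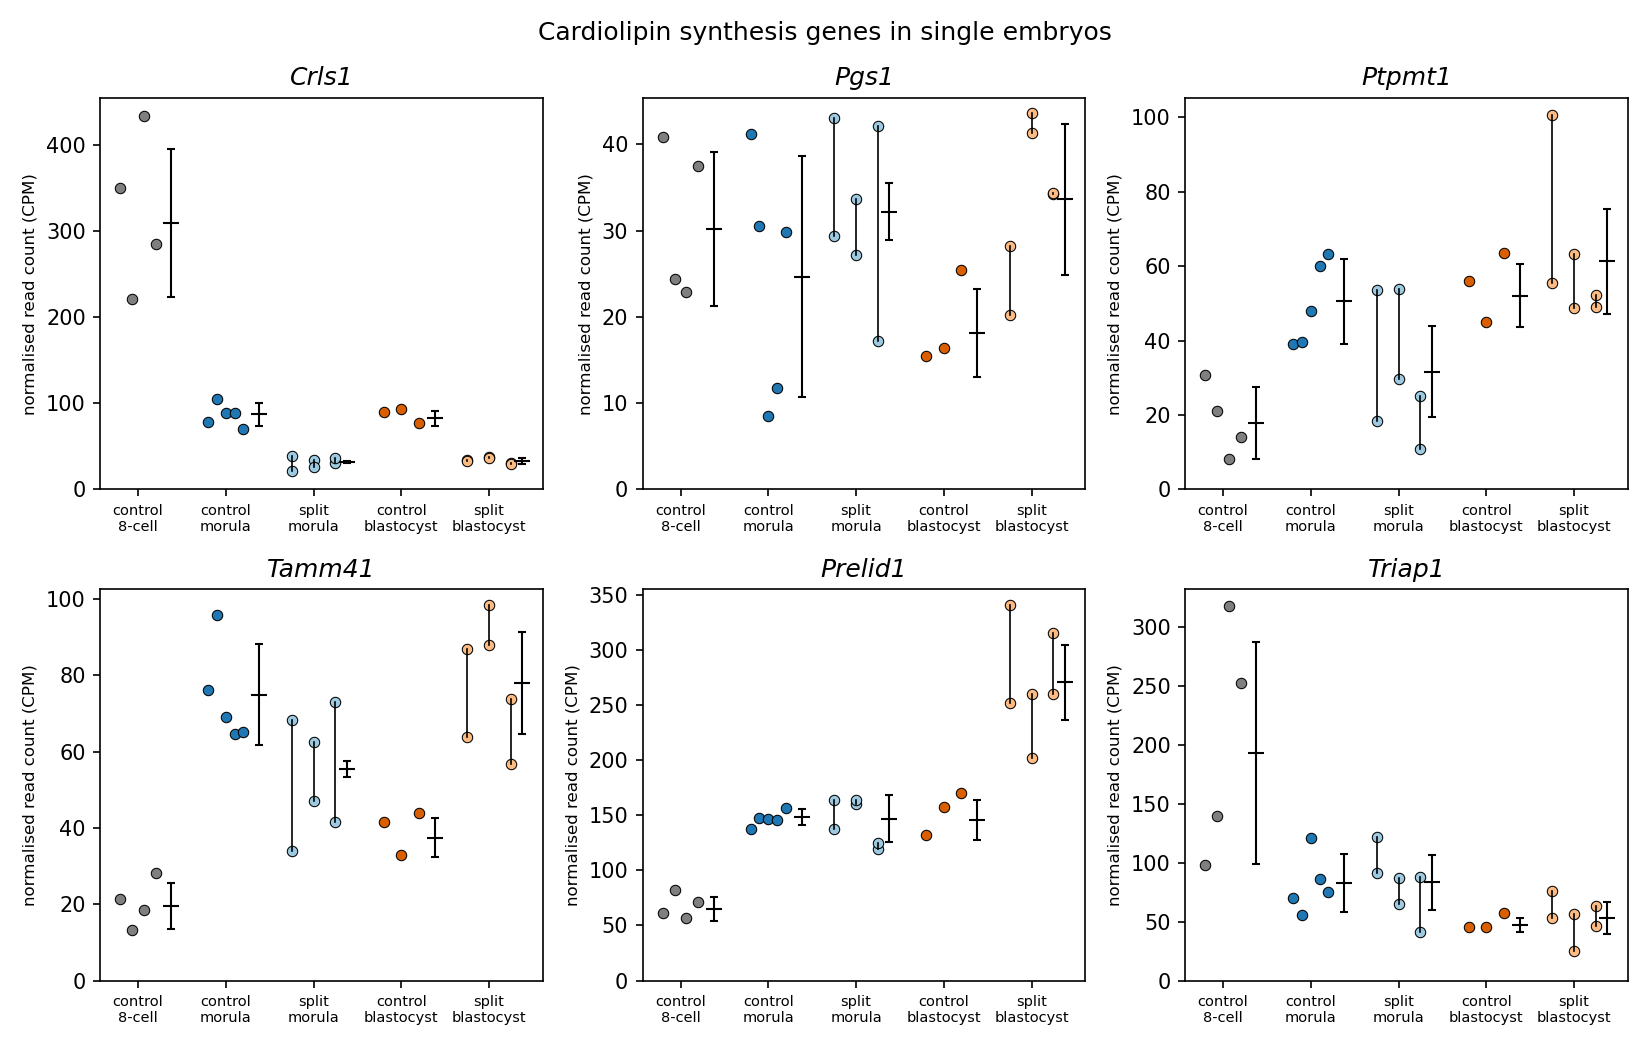
CPM of each member in every embryo (points, each embryo scaled on its own, so controls differ slightly from the unit values in the text) on linear axes from 0, with sisters joined by a line and the group mean ± SD over units at the right of each group. Crls1 is highest in 8-cell embryos (unit mean 309 CPM), with unit means of 86.9 and 82.3 CPM in control morulae and blastocysts. It is lower in split blastocysts, and in split morulae, where the contrast was known when the route was picked. Prelid1 is highest in split blastocysts (unit mean 270.3 CPM).

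From control morula to control blastocyst, 1 of the 6 members changed, Tamm41, which fell, where 7.46% of all tested genes were called lower, 3.12% higher and 10.6% in either direction. The members' median log2 change was -0.26 beside 0.11 over all tested genes. None rose. At an unadjusted p under 0.05, 0 rose and 2 fell (Tamm41 and Triap1), and DESeq2 gave 0 and 1. The control morulae also serve in the comparison with the 8-cell embryos, so the changes of these 2 steps share samples.

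Tamm41 went from 74.9 ± 13.3 CPM in control morulae to 39.39, 31.67 and 41.36 CPM in control blastocysts. All 3 blastocysts were below all 5 morulae, a separation in either direction that 24.6% of all tested genes showed. The log2 change was -1.0 ± 0.28 (edgeR adjusted p = 0.0218). This call was lost in 11 of 18 alternatives, among them leaving out control morula 2 (-0.89, edgeR adjusted p = 0.0578), control blastocyst 1 (-1.04, 0.0807), control blastocyst 2 (-0.89, 0.121) or control blastocyst 3 (-1.08, 0.0663). On the TPM scale its log2 change was -0.51 (limma adjusted p = 0.180).

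Over this step Crls1 measured 86.9 ± 13.3 CPM in control morulae and 85.03, 89.49 and 72.36 CPM in control blastocysts. The blastocyst values lay within the range of the morulae, and the log2 difference was -0.08 ± 0.21 (edgeR adjusted p = 0.893). On the TPM scale it was 0.39 (limma adjusted p = 0.164), where the median of all genes was itself shifted by 0.37. Prelid1 was at 148 ± 7.53 and 146 ± 18.2 CPM, with a log2 difference of -0.03 ± 0.18 (edgeR adjusted p = 0.969) and of 0.43 on the TPM scale (limma adjusted p = 0.0879). Ptpmt1 was at 50.5 ± 11.3 and 52.1 ± 8.39 CPM, a log2 difference of 0.04 ± 0.38 (edgeR adjusted p = 0.979). Triap1 was at 43.11, 43.47 and 53.57 CPM in the blastocysts, all below the lowest morula (56.85 CPM), a lack of overlap shared with 24.6% of all tested genes, and its log2 difference of -0.82 ± 0.34 did not pass (edgeR adjusted p = 0.130). Pgs1 measured 14.67, 15.70 and 23.98 CPM in the blastocysts, within the morula range, with a log2 difference of -0.44 ± 0.46 (edgeR adjusted p = 0.617).

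In split morulae, set beside control morulae as a description, Crls1 was the member with the largest difference. The 3 pairs stood at 31.56, 30.45 and 33.34 CPM and the 5 control morulae at 70.88 to 106.2 CPM. The pairs all lay below the controls, with a ratio of 2.733 between the means (log2 -1.45). Each pair value sums sister embryos, so the closeness of the pairs is not the spread of single embryos. Single split morulae ran from 21.54 to 39.01 CPM. Tamm41 was also lower in all pairs, at 53.45, 55.38 and 57.55 CPM against 64.89 to 97.28 CPM (log2 -0.43). Single split morulae did overlap the controls for Tamm41, reaching 72.99 CPM with each embryo scaled on its own. Units of the remaining 4 members overlapped between the groups, with log2 differences of 0.39 for Pgs1, -0.68 for Ptpmt1, -0.02 for Prelid1 and 0.02 for Triap1. The members' median was -0.22 beside 0.00 over all tested genes, of which 0.126% were called in either direction (0.0693% higher and 0.0567% lower) and 7.25% did not overlap. Nothing is read from these shares, since this is the contrast known when the route was picked.

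Split blastocysts and control blastocysts are other embryos than these, but the members were chosen with earlier results of these data known. Between these blastocyst groups, 3 of the 6 members changed: Crls1 fell, and Prelid1 and Tamm41 rose. Among all tested genes 4.74% were called in either direction, 3.42% higher and 1.32% lower. The members' median log2 change was 0.56 beside 0.00 over all tested genes. This comparison asks how far an embryo grown from a single separated blastomere resembles an intact one at the same stage.

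The cardiolipin synthase gene measured 85.03, 89.49 and 72.36 CPM in the control blastocysts and 33.86, 36.55 and 29.65 CPM in the split pairs. The highest split pair was below the lowest control, where 31.0% of all tested genes showed no overlap in either direction. Crls1 was 2.467-fold lower, a log2 change of -1.30 ± 0.24 (edgeR adjusted p = 0.00230). The call held in 16 of 16 alternatives, with log2 changes from -1.53 to -1.22 and adjusted p-values up to 0.0287. The mitochondrially encoded share of counts was lower in split blastocysts (0.841% to 2.34% against 3.47% to 4.85%) and the trophectoderm sum was higher, and their part in the lower Crls1 level was not tested.

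At the other end of the route, Prelid1 measured 125.2, 151.5 and 160.0 CPM in the control blastocysts and 295.4, 231.8 and 283.9 CPM in the split pairs. Every split pair was above every control, again beside 31.0% of all tested genes without overlap in either direction. The log2 change was 0.89 ± 0.21 (edgeR adjusted p = 0.0113), 1.857-fold. The call was lost in 4 of 16 alternatives: without split pair 1 (0.83, edgeR adjusted p = 0.0742), without split pair 3 (0.86, 0.0639), without control blastocyst 1 (0.80, 0.0978) and on log2(TPM + 1) (0.63, limma adjusted p = 0.0649). Triap1, whose product works bound to that of Prelid1, was at 46.7 ± 5.94 and 53.2 ± 13.8 CPM (n = 3 and 3 units). The groups overlapped, and the log2 difference was 0.19 ± 0.36 (edgeR adjusted p = 0.945).

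Tamm41 measured 39.39, 31.67 and 41.36 CPM in the control blastocysts and 75.07, 92.66 and 66.20 CPM in the split pairs. The groups did not overlap, like those of 31.0% of all tested genes. The log2 change of 1.06 ± 0.30 passed narrowly (edgeR adjusted p = 0.0478). In 14 of 16 alternatives it did not pass (log2 changes 0.76 to 1.16, adjusted p-values up to 0.216), including the removal of any 1 of the 6 units: split pair 1 gave 1.09 (edgeR adjusted p = 0.131), split pair 2 gave 0.92 (0.214), split pair 3 gave 1.16 (0.0864), control blastocyst 1 gave 1.10 (0.155), control blastocyst 2 gave 0.95 (0.216) and control blastocyst 3 gave 1.14 (0.107). Pgs1 stood at 24.61, 42.08 and 34.26 CPM in split pairs and 14.67, 15.70 and 23.98 CPM in controls. These units did not overlap, as was the case for 31.0% of all tested genes. Single embryos, each scaled on its own, did overlap, from 20.23 CPM in split blastocysts and up to 25.48 CPM in controls. The Pgs1 log2 difference of 0.89 ± 0.50 did not pass (edgeR adjusted p = 0.434). Ptpmt1 overlapped, at 61.3 ± 14.1 and 52.1 ± 8.39 CPM, with a log2 difference of 0.24 ± 0.43 (edgeR adjusted p = 0.935).

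**Figure D3:**
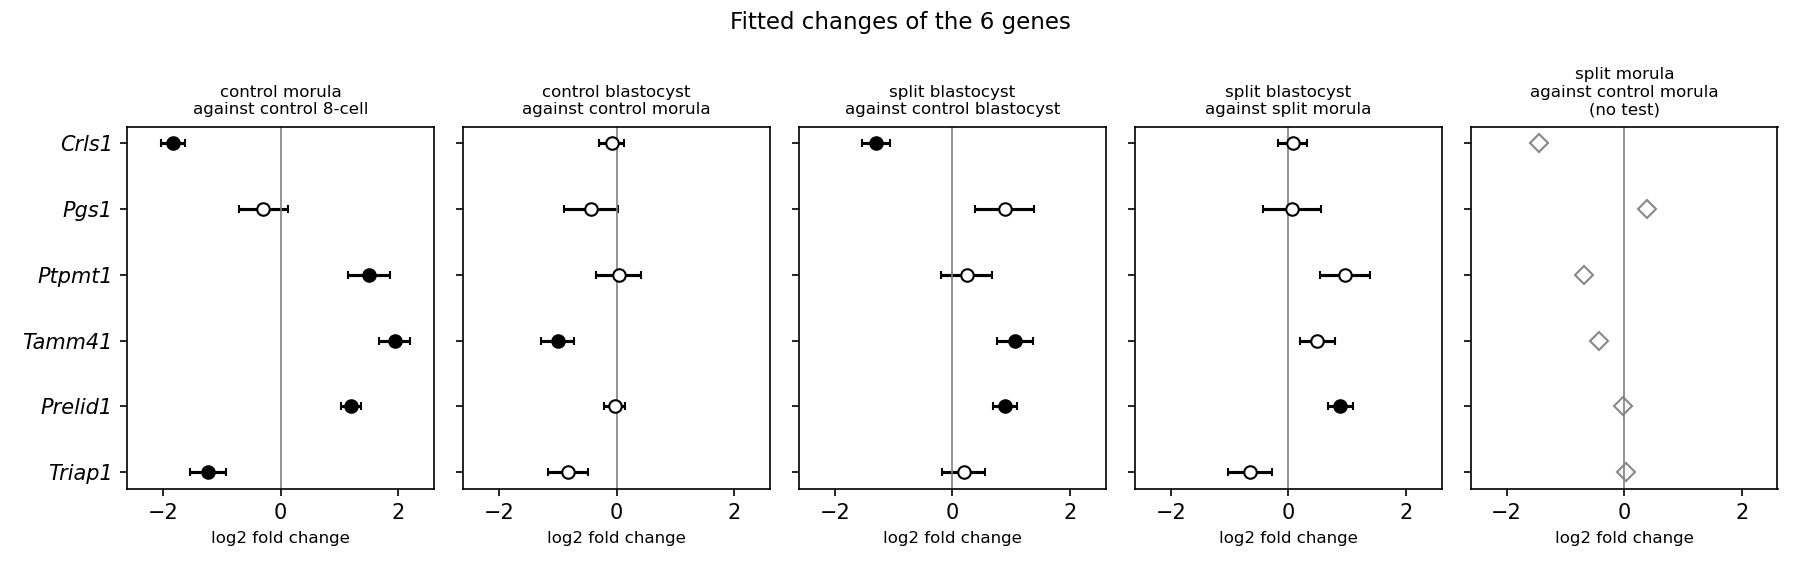
Log2 fold change of each member (horizontal axis) in the 5 comparisons, with error bars of 1 SE, filled circles for an edgeR adjusted p under 0.05, open circles for other tested values and diamonds without error for split against control morulae, which is a description. Crls1 is at -1.30 and Prelid1 at 0.89 in split against control blastocysts, and Tamm41 goes from 1.94 at the morula to -1.0 at the control blastocyst.

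From split morula to split blastocyst, 1 of the 6 members changed, Prelid1, which rose, where 1.22% of all tested genes were called higher, 2.95% lower and 4.17% in either direction. None fell. At an unadjusted p under 0.05, 2 rose (Prelid1 and Ptpmt1) and 0 fell, and DESeq2 gave 1 and 0. The members' median log2 change was 0.28 beside 0.05 over all tested genes. The split morulae are also the embryos of the description above, and the split blastocysts those of the comparison with control blastocysts.

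Prelid1 went from 153.9, 163.8 and 122.7 CPM in split morulae to 295.4, 231.8 and 283.9 CPM in split blastocysts, with no overlap. Its log2 change was 0.88 ± 0.21 (edgeR adjusted p = 0.0141), and control embryos over the same step gave -0.03 ± 0.18. The difference between these 2 changes was not tested. The call was lost without split morula pair 3 (0.77, edgeR adjusted p = 0.0831), without split blastocyst pair 1 (0.82, 0.0907), without split blastocyst pair 3 (0.84, 0.0855), and with these 2 groups fitted alone (0.87, 0.0601). Crls1 was at 31.8 ± 1.46 and 33.35 ± 3.48 CPM (n = 3 and 3 units), with a log2 difference of 0.07 ± 0.24 (edgeR adjusted p = 0.937). Ptpmt1 measured 34.73, 42.06 and 18.04 CPM in split morulae and 77.30, 56.30 and 50.39 CPM in split blastocysts. These units did not overlap, as for 27.4% of all tested genes. Single embryos did overlap, up to 53.85 CPM in split morulae and from 48.85 CPM in split blastocysts. The Ptpmt1 log2 difference of 0.96 ± 0.43 did not pass (edgeR adjusted p = 0.219). It passed with limma-voom (1.13, adjusted p = 0.0358) and with blastomere 1 of each pair alone (1.78, edgeR adjusted p = 0.0401). Tamm41 was higher in each split blastocyst pair than in each split morula pair, with a log2 difference of 0.49 ± 0.30 that did not pass (edgeR adjusted p = 0.381). For Pgs1 the log2 difference was 0.06 ± 0.50 (edgeR adjusted p = 0.983) and for Triap1 it was -0.65 ± 0.37 (edgeR adjusted p = 0.330), both with overlap.

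Ordered by mean CPM, Crls1 was highest at the 8-cell stage, then in control morulae and control blastocysts, whose units overlapped, and lowest in split blastocysts and split morulae, whose units overlapped too. Prelid1 was highest in split blastocysts and lowest at the 8-cell stage, with control morulae, split morulae and control blastocysts overlapping in between. For Tamm41 the order ran from split blastocysts and control morulae, which overlapped, through split morulae and control blastocysts to 8-cell embryos. For Pgs1, Ptpmt1 and Triap1, each pair of neighbouring groups overlapped.

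**Figure D4:**
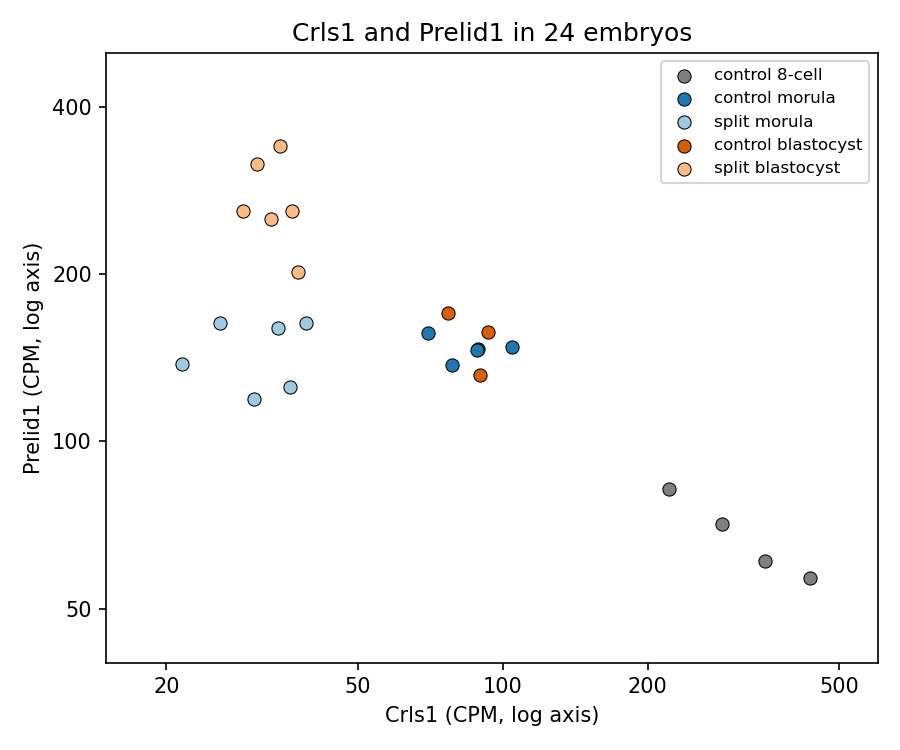
Crls1 CPM (horizontal, log axis) against Prelid1 CPM (vertical, log axis), with 1 point per embryo and colours for the 5 groups. 8-cell embryos lie at high Crls1 and low Prelid1, split blastocysts at low Crls1 and at Prelid1 of 202.1 to 340.5 CPM, and control morulae and control blastocysts share 1 area between them.

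Sisters from the same 2-cell embryo gave a measure of spread between embryos of common origin. For Crls1 the larger sister value was 1.811, 1.320 and 1.187 times the smaller in the 3 split morula pairs and 1.043, 1.031 and 1.073 times in the 3 split blastocyst pairs. In split blastocysts all 6 single embryos lay between 28.77 and 37.60 CPM, and in split morulae between 21.54 and 39.01 CPM. With sisters counted singly, the split blastocysts were thus all below each control blastocyst. The split morulae were all below each control morula, in the contrast known when the route was picked, from which nothing is read. For Prelid1 the 6 ratios ran from 1.022 to 1.353, with a median of 1.199. Ptpmt1 had the widest spread, with ratios from 1.065 to 2.909 and a median of 1.813. Over all genes whose mean log2 CPM reached 3, the median ratio was 1.407. The medians of Crls1 (1.130), Prelid1, Pgs1 (1.318) and Tamm41 (1.348) were below it, and that of Triap1 (1.404) was next to it.

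The counts of some members are uncertain because a gene on the other strand overlaps them and the strand setting of the counting is not given in the sources used here. GENCODE names Gm14104 across Crls1, Dnah17 across Pgs1, Mxd3 and Rab24 across Prelid1, and Kbtbd4 and Gm17661 across Ptpmt1. Gm14104 had 0 counts in all embryos but for at most 5 in control morulae. Rab24, the most abundant of these, had 255 to 570 counts in control blastocysts and 303 to 591 in split blastocysts. Kbtbd4 had 0 to 277 counts in 8-cell embryos and 0 to 105 in control morulae. Ptpmt1 itself had 187 to 1019 and 609 to 1109 counts in these groups. The part of this overlap in the Ptpmt1 values was not tested. No other annotated gene carries a name derived from a member's.

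The genes whose level ran most like that of Crls1 were named by Pearson's r of log2 CPM over the 18 units, among 6560 genes whose mean log2 CPM reached 3. They were Cnep1r1 (r = 0.965), mt-Atp6 (0.950), Zfp280d (0.948), Nsmce4a (0.941) and Taf1d (0.936). The units fall into 5 groups, and library depth differs between groups, so these values describe a likeness of group levels and carry no p. Cnep1r1, the regulatory partner of a phosphatase that acts on the phosphatidic acid phosphatase lipin, went from 188 ± 41.3 CPM at the 8-cell stage to 73.2 ± 7.38 in control morulae and 61.6 ± 0.634 in control blastocysts. It stood at 42.6 ± 3.67 in split morulae and 41.8 ± 9.11 in split blastocysts. The mitochondrially encoded mt-Atp6, a subunit of ATP synthase, stood at 212 ± 44.7, 64.4 ± 16.8, 30.2 ± 5.92, 83.1 ± 27.4 and 29.5 ± 8.77 CPM in 8-cell embryos, control morulae, split morulae, control blastocysts and split blastocysts. It was a small part of the mitochondrially encoded counts. Scaled by total counts only, these summed to 33797 to 56149 CPM in 8-cell embryos and 26953 to 50588 CPM in control morulae. Likeness of Crls1 to that sum was not tested.

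Beyond the 6 members, a list of further cardiolipin genes held 32 tested genes. It comprised 6 genes of precursor supply, 8 of remodelling of the acyl chains, 3 of turnover and movement, and 15 of scaffolds and proteases of the inner membrane that bind or regulate cardiolipin. The list was written with earlier results of these data known. From the 8-cell stage to the morula 13 rose and 2 fell (24.9% of all tested genes were called), with a median log2 change of 0.85 beside 0.09. In scaffolds and proteases 8 of 15 rose and 1 fell, and in precursor supply 3 of 6 rose. Chchd3, a subunit of the MICOS complex at cristae junctions, rose from 30.1 to 105 mean CPM (log2 1.80 ± 0.27, edgeR adjusted p = 3.30e-05). Another MICOS subunit, Chchd6, rose from a low level, 3.390 to 23.95 mean CPM, with 0 counts in 8-cell embryo 3. Its log2 change was 2.81 ± 0.84 (edgeR adjusted p = 0.0182, lost in 4 of 19 alternatives) and 4.52 with limma-voom, so its size is uncertain. Yme1l1, an inner membrane protease that also degrades Prelid1, rose by 1.46 ± 0.17 on the log2 scale (edgeR adjusted p = 2.29e-06). Cds2, the CDP-diacylglycerol synthase of the endoplasmic reticulum, rose from 40.7 to 119 mean CPM (log2 1.55 ± 0.27, edgeR adjusted p = 0.000220). In remodelling, Acsl4, an acyl-CoA synthetase, rose by 1.42 ± 0.33 on the log2 scale (edgeR adjusted p = 0.00404), and Lclat1, a lysocardiolipin acyltransferase, fell by 1.69 ± 0.27 (edgeR adjusted p = 8.81e-05). No gene of turnover and movement passed (0 of 3; 2 rose at an unadjusted p under 0.05 and 1 with DESeq2).

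From control morula to control blastocyst, 2 of the 32 rose and 4 fell (10.6% of all tested genes were called), with a median log2 change of -0.07 beside 0.11. Acsl4 fell from 1277 to 205 mean CPM (log2 -2.64 ± 0.40, edgeR adjusted p = 0.000138). Lclat1 fell from 61.9 to 13.9 mean CPM (log2 -2.16 ± 0.33, edgeR adjusted p = 9.61e-05). The trifunctional protein genes parted, with Hadha rising (log2 1.64 ± 0.34, edgeR adjusted p = 0.00244) and Hadhb falling (log2 -0.78 ± 0.23, edgeR adjusted p = 0.0262). Phb, a prohibitin, fell by 0.80 ± 0.18 (edgeR adjusted p = 0.00544), and Letm1, an inner membrane protein, rose by 1.25 ± 0.33 (edgeR adjusted p = 0.0165). Without control blastocyst 1, Hadhb gave -0.64 (0.170), Phb -0.71 (0.0581) and Letm1 1.14 (0.103). Without control blastocyst 3, Hadhb gave -0.80 (0.0888) and Letm1 1.30 (0.0511), and without control morula 3 Hadhb gave -0.73 (0.0566). On log2(TPM + 1) Phb gave -0.34 (limma adjusted p = 0.216) and Hadhb -0.32 (0.342). With limma-voom the calls of Lclat1 (-2.05, adjusted p = 0.0980), Phb (-0.71, 0.0771), Hadhb (-0.69, 0.201) and Letm1 (1.34, 0.0590) were lost. From split morula to split blastocyst, 1 of the 32 rose (Letm1, log2 1.42 ± 0.39, edgeR adjusted p = 0.0392) and 2 fell (4.17% of all tested genes were called). Those were Acsl4 (log2 -2.83 ± 0.42, edgeR adjusted p = 0.000528) and Lclat1 (log2 -1.96 ± 0.34, edgeR adjusted p = 0.00167). With these groups fitted alone, Lclat1 gave -1.98 (edgeR adjusted p = 0.0557) and Letm1 1.41 (0.0633). The Letm1 call was lost on leaving out any 1 of these 6 pairs, with adjusted p-values of 0.0568, 0.0827 and 0.188 for split morula pairs 1, 2 and 3 and 0.118, 0.113 and 0.157 for split blastocyst pairs 1, 2 and 3.

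In split against control blastocysts, 4 of the 32 rose and 1 fell (4.74% of all tested genes were called), with a median log2 change of 0.40 beside 0.00. Prohibitins form rings in the inner membrane that hold cardiolipin domains. Phb measured 101.6, 109.5 and 140.4 CPM in control blastocysts and 354.7, 392.0 and 387.2 CPM in split pairs, far apart (log2 1.69 ± 0.21, edgeR adjusted p = 5.23e-05). Phb2 rose with it, from 210.2, 194.5 and 303.8 CPM to 542.0, 413.2 and 588.1 CPM (log2 1.12 ± 0.25, edgeR adjusted p = 0.0101). The Phb2 call was lost without split pair 3 (1.02, 0.0591), control blastocyst 1 (1.05, 0.0696) or control blastocyst 2 (1.01, 0.0727), and on log2(TPM + 1) (0.87, limma adjusted p = 0.0758). Stoml2, a cardiolipin-binding relative of the prohibitins, rose from 103.4, 119.3 and 157.4 CPM to 339.4, 264.8 and 332.3 CPM (log2 1.30 ± 0.27, edgeR adjusted p = 0.00524). Hadhb rose from 53.54, 80.87 and 69.86 CPM to 153.1, 172.6 and 163.0 CPM (log2 1.26 ± 0.25, edgeR adjusted p = 0.00334). Yme1l1 fell from 1214, 884.4 and 710.8 CPM to 362.3, 455.2 and 333.7 CPM (log2 -1.29 ± 0.21, edgeR adjusted p = 0.000566). None of these 5 genes overlapped between the groups, as was the case for 31.0% of all tested genes. In split against control morulae, with no test, Phb (log2 0.65), Stoml2 (0.42) and Yme1l1 (-0.56) did not overlap, while Phb2 (0.35) and Hadhb (-0.38) did. The mitochondrially encoded share and the trophectoderm sum differed between the blastocyst groups as given above, and their part in these changes was not tested.

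**Figure D5:**
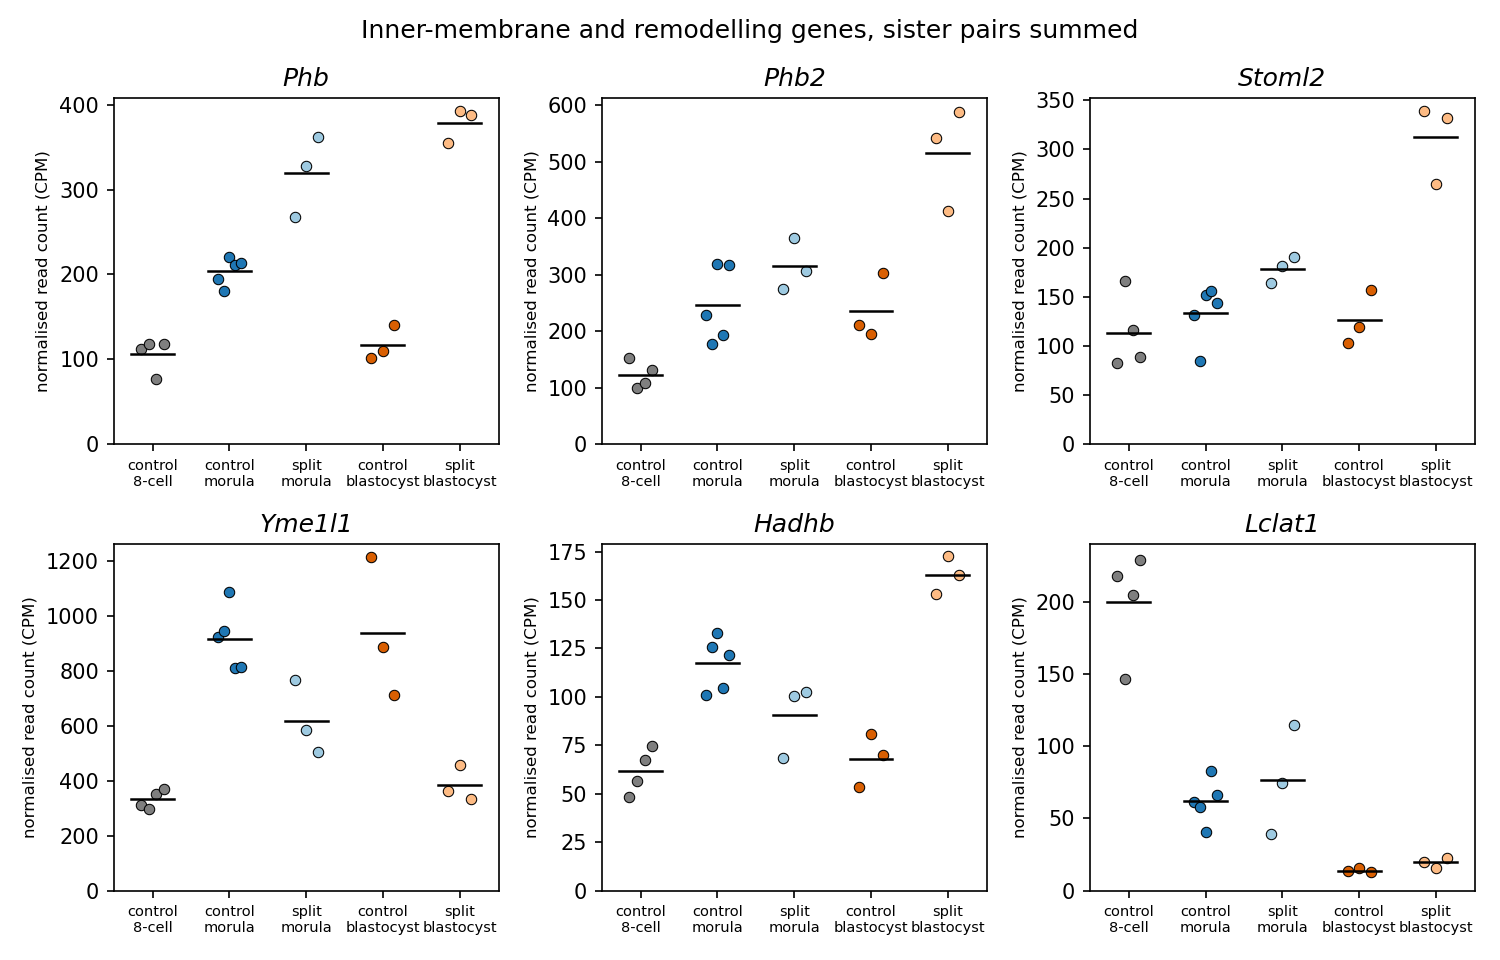
CPM of Phb, Phb2, Stoml2, Yme1l1 and Hadhb, the listed genes called in split against control blastocysts, and of Lclat1, in every unit (points) on linear axes from 0, with a line at the group mean. Split blastocysts sit at 354.7 to 392.0 CPM for Phb against 101.6 to 140.4 in control blastocysts, and Yme1l1 goes the other way, at 333.7 to 455.2 against 710.8 to 1214.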

How the data were processed

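RNA of 24 single embryos was analysed. Per the submitters' processing notes, reads were handled with FastQC, MultiQC, cutadapt, HISAT2, featureCounts and edgeR on GRCm39. The versions, annotation release and strand setting are not given in the sources used here. The authors deposited a table of raw read counts (37229 gene symbols, no row without a gene name) and a table of TPM values (15625 genes), which were used as deposited.

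The 6 members and all gene lists were chosen with earlier results of these data known. Sister counts were summed, giving 18 units. Genes were filtered with filterByExpr (15875 kept), scaled by TMM, and fitted in 1 robust edgeR quasi-likelihood model of the 5 groups, which left 13 residual degrees of freedom; its F tests are two-sided. Benjamini-Hochberg adjustment ran over all 15875 genes, and a gene was called at an adjusted p under 0.05. Split against control morulae received no test. The code was tested on simulated data. Groups do not overlap where every unit of one lies above every unit of the other. Named from the list were, per comparison, up to 6 called genes of largest change without overlap, and the 5 genes most like Crls1 by Pearson's r (prior count 2).

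Of the 36 listed symbols, 32 were in the table and tested (Slmo1, Slmo2, Tafazzin and Phb1 are further symbols not used there). Alternatives were DESeq2, upper-quartile scaling, no filter, limma on log2(TPM + 1), the compared groups alone, each embryo as its own sample, limma-voom with origin as a random effect, 1 blastomere per pair, the replicate number as a block, and leaving out each unit. No 2 count columns were identical. Reads carry no molecular identifiers, and depth limits low members such as Pgs1 most. Promoter sequences are RefSeq's on GRCm38.p6. As that build differs from the files' build, GENCODE M21 served only for gene names and overlaps. The software was DESeq2 1.42.0, limma 3.58.1 and edgeR 4.0.16 under R 4.3.3.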

Additional observations from a re-analysis of the deposited data

Results flagged for a closer look

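Ptpmt1 stood at 100.6 CPM in the embryo grown from blastomere 1 of split blastocyst pair 1, far from the other 5 split blastocysts at 48.85 to 63.39 CPM, its own sister among them at 55.57 CPM. Such a gap was looked for in 24 sets of embryos (6 genes in the 4 groups of 4 or more embryos), and chance gives about 1 in 20. Tamm41 differed in opposite directions at the 2 stages. Its mean was 55.46 CPM in split morulae and 74.94 CPM in control morulae, with every split pair lower, and 77.98 CPM in split blastocysts and 37.48 CPM in control blastocysts, with every split pair higher. At the morula, a contrast known when the route was picked, units of 7.25% of all tested genes did not overlap in either direction. At the blastocyst that share was 31.0%. Single split morulae, each scaled on its own, reached 72.99 CPM for Tamm41, above the lowest control morula at 64.63 CPM. The blastocyst call was lost in 14 of 16 alternatives. The difference between the effects at the 2 stages was not tested.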

How the results depend on the processing

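No result changed direction past its threshold under any alternative run. Members called from 8-cell to morula numbered 5 under all 19 alternatives. Members called from control morula to control blastocyst went from 1 to 0 with no filter, on log2(TPM + 1), with each embryo as its own sample, with limma-voom, with blastomere 1 only, with blastomere 2 only and with the replicate block, and lay between 0 and 1 on leaving out a unit. In split against control blastocysts the 3 calls became 1 on log2(TPM + 1), 2 with upper-quartile scaling, no filter, each embryo as its own sample, limma-voom, blastomere 1 only, blastomere 2 only or the replicate block, and 1 to 2 on leaving out a unit (1 without split pair 1, split pair 3 or control blastocyst 1). From split morula to split blastocyst the 1 call became 0 with the compared groups alone, 2 with limma-voom and with blastomere 1 only, and 0 to 1 on leaving out a unit. The causes were not tested. The log2 difference of Crls1 in split morulae was -1.45, and -1.28 on log2(TPM + 1), -1.64 with blastomere 2 only, -1.55 with the replicate block and -1.52 to -1.37 on leaving out a unit. Same-numbered units correlated at -0.08 to 0.19 in their deviations. With so few units per group this cannot settle whether the numbers pair them, and the main fit used no pairing. Among the listed genes, the 8-cell to morula calls of Prelid2, Micos13, Chchd6 and Immt were lost in 10, 8, 4 and 1 of 19 alternatives, those of Hadhb, Letm1, Phb and Lclat1 from control morula to control blastocyst in 9, 4, 3 and 1 of 18, and Phb, Stoml2, Hadhb and Yme1l1 kept their calls in split blastocysts in 16 of 16. Over all genes, the share of called genes that rose depended on the method. For control blastocysts against morulae it was 29.5%, and 39% with DESeq2, 76.5% on log2(TPM + 1) and 54.4% with limma-voom. For split against control blastocysts it was 72.2%, and 62.5%, 40.3% and 49.1% in the same order. For split blastocysts against split morulae it was 29.3%, and 46.2%, 67.0% and 73.2%. Upper-quartile scaling gave 24.6%, 67.4% and 27.5% in these comparisons. The median of all genes on log2(TPM + 1) was 0.37, -0.14 and 0.16 in these comparisons. Genes called in split against control blastocysts numbered 752, and 1407 with DESeq2, 2037 with the compared groups alone and 408 to 552 on leaving out a unit. Those for control blastocysts against morulae numbered 1680, and 2542 with DESeq2, 3619 on log2(TPM + 1) and 1083 to 1524 on leaving out a unit. Those for split blastocysts against split morulae numbered 662, and 1678 with DESeq2, 1461 on log2(TPM + 1), 413 with the compared groups alone, 2205 with each embryo as its own sample, 2903 with limma-voom and 292 to 632 on leaving out a unit.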
